A study of Mus musculus with 8 samples.

Results

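The Hox genes encode homeodomain transcription factors that lie in 4 clusters of the mouse genome, and all 39 of them, found by symbol among 21887 protein-coding genes, were followed here in maps of DC-SCRIPT binding. DC-SCRIPT is the zinc finger protein encoded by Zfp366. Peaks whose centre lay inside a Hox gene, or lay in no protein-coding gene and had a Hox gene as the nearest one, made up 11 of 31473 peaks in cDC1 and 3 of 2776 peaks in cDC2. The peaks came from CUT&Tag, in which an antibody guides a transposase to the protein so that the DNA beside it is cut, tagged and sequenced. Both conventional dendritic cell subsets were sorted from spleens of female C57BL/6 mice that were either zfp366-/- (2 libraries of cDC1 and 2 of cDC2) or zfp366+/+ (3 libraries of cDC1 and 1 of cDC2). Mice were pooled for each library. The labels used here give neither age nor the deleted part of the gene, nor any promoter or Cre behind the deletion.

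Hox genes give cells of the embryo their position along the body axis, with low paralogue numbers acting towards the head and high numbers towards the tail. In blood, several of them, Hoxa9 and Hoxa10 among these, act in stem and progenitor cells together with the cofactor Meis1 and are largely switched off as cells mature, which involves Polycomb repressor complexes. RNA was not measured in these samples, so whether the genes were silent in the sorted cells was not checked.

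Each list compares 1 set of knockout tags with 1 set of wild-type tags, so no spread between mouse pools can be given. In cDC1 the knockout set held 12.1 M tags and the wild-type set 35.5 M. In cDC2 there were 6.83 M knockout and 4.77 M wild-type tags. Values per peak are normalised tags, that is, the tags of a peak scaled to a set of 10000000. Fold means wild type over knockout at equal depth, as the authors listed it, and the 95% intervals beside it, computed from both tag numbers, cover no more than counting error. Since the authors kept a peak only when this fold was at least 4, wild-type tags above knockout tags are how every member entered the list, and not a result. Coordinates refer to GRCm38. A peak does not measure expression, so the identity of the sorted cells could not be checked by RNA. Of the listed marker genes, 8 of 8 for cDC1 and 7 of 8 for cDC2 had a cDC1 peak, and so did 2 of 3 for plasmacytoid dendritic cells, 2 of 3 for monocytes and macrophages, 1 of 2 for neutrophils, and 1 of 3 each for T and NK cells, B cells and erythroid cells. In cDC2 the counts were 3 of 8 cDC1 markers, 5 of 8 cDC2 markers, 1 of 3 plasmacytoid and 1 of 3 monocyte markers, and 0 for the other cell types. Among all protein-coding genes, 51.3% had a cDC1 peak and 9.54% a cDC2 peak, so several of the shares in other cell types are near or above that of all genes.

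A pair of the cDC1 peaks lay close to the miR-10 genes of their clusters. The clusters hold small RNA genes as well as Hox genes, and miR-10 and miR-196 are known to target Hox transcripts. In cDC1 a peak stood 631 bp above the Mir10a hairpin in the Hoxb cluster and another 1587 bp below the Mir10b hairpin in the Hoxd cluster. The peak by Mir10b is the weakest Hox peak of cDC1, with 6.06 normalised wild-type tags. The 3 miR-196 hairpins had no peak as close. In cDC1 the nearest Hox peak was 46.2 kb from Mir196a-1, 78.4 kb from Mir196a-2 and 56.9 kb from Mir196b. In cDC2 it was 78.4 kb from Mir196a-2 and 7.13 kb from Mir196b. The mature strands, from RefSeq on GRCm38.p6, are shown because they pair the 2 loci with a nearby peak and the 3 without. Capitals mark the seed, bases 2 to 8.
mmu-miR-10a-5p (chr11:96317186-96317208, plus strand): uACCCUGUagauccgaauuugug
mmu-miR-10b-5p (chr2:74726074-74726096, plus strand): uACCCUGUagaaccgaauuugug
mmu-miR-196a-5p (chr11:96265187-96265208 and chr15:102973365-102973386, plus strand): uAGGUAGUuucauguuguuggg
mmu-miR-196b-5p (chr6:52230129-52230150, minus strand): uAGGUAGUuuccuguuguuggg
The miR-10 strands share their seed and differ by U12A, the miR-196 strands share theirs and differ by A12C, with positions counted from the 5′ end and the a form given first.

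A single promoter of the RefSeq table overlapped a Hox peak. It belongs to Hoxb4, a gene known for expanding blood stem cells when overexpressed, and it shared 80 of its 300 bases with the cDC1 peak beside Mir10a. The promoter, which runs across the start, is shown with the bases inside the peak in capitals.
Hoxb4 promoter (GRCm38.p6, chr11:96318017-96318316, plus strand): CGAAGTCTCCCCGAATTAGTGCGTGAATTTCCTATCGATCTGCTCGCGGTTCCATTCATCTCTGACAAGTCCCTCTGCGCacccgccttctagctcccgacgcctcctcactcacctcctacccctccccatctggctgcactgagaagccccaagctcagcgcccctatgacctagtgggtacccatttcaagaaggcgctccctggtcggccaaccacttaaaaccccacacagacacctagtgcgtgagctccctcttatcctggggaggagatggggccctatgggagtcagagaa
It holds 14 CpG, 7 of them inside the peak, and 63.7% of all 32851 promoters of the table hold fewer. The 24 Hox promoters given there, of 22 genes, had a median of 14.5 CpG and of 57.7% G and C, against 7 CpG and 52.7% over all promoters. Motif matches were counted on both strands. AGGTCA, a unit of nuclear receptor sites, was in 7 of the 24 Hox promoters (29.2%), Hoxb4 included, against 16.3% of all promoters. The E-box CANNTG was in 17 (70.8%) against 72.3%, and TAATTA, a core read by homeodomains, in 2 (8.33%) against 5.29%. The ETS site of the PU.1 type, GAGGAA followed by GT, was in 1 (4.17%) against 3.202%, and TGANTCA, the AP-1 site, in 1 (4.17%) against 7.81%. The interferon response motif, GAAA and GAAA with 2 bases between, was in 0 against 3.44%.

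Counted by gene, the share with a peak was smaller among Hox genes than among all protein-coding genes. A cDC1 peak was assigned to 9 of 39 Hox genes (23.1%), and 51.3% of all protein-coding genes had at least 1. In cDC2 it was 2 of 39 (5.13%), beside 9.54% of all genes. No test of this difference was made. Of all putative cDC1 peaks the authors kept 18.0%, and 14.2% in cDC2. Hox genes lie close together, with 21.6 kb of chromosome nearest to each one on average against 123.5 kb for all protein-coding genes. Measured by length the picture changed. The stretches nearest to Hox genes span 843.4 kb and held 13.04 cDC1 peaks per Mb (exact Poisson 95% interval 6.51 to 23.3), and 11.6 peaks per Mb lay across all chromosomes from their first to their last gene. The windows between the outermost Hox gene ends, 492.1 kb in all, held 6 cDC1 peaks, 12.2 per Mb (4.48 to 26.5). In cDC2 the stretches nearest to Hox genes held 3.56 peaks per Mb (0.734 to 10.4), and the chromosomes 1.03. All of these intervals hold the chromosome-wide value.

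Peak numbers differed between the clusters but were small. By the assignment used here, Hoxb had 5 cDC1 peaks, and Hoxa, Hoxc and Hoxd had 2 each. With non-coding genes allowed as the nearest gene, Hoxb and Hoxd had 2 each, and in windows widened by 100 kb they had 5 each. In cDC2 there were 2 peaks at Hoxc, 1 at Hoxa and 0 at Hoxb and Hoxd. Inside the window between its outermost genes, Hoxd held 2 cDC1 peaks (20.6 per Mb, exact Poisson 95% interval 2.499 to 74.5), Hoxb 3 (17.2 per Mb, 3.56 to 50.4), and there was 1 in the Hoxa window (9.48 per Mb, 0.240 to 52.8) and 0 in that of Hoxc, which allows up to 31.9 per Mb. These intervals overlap, so the clusters could not be told apart by density.

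**Figure D1:**
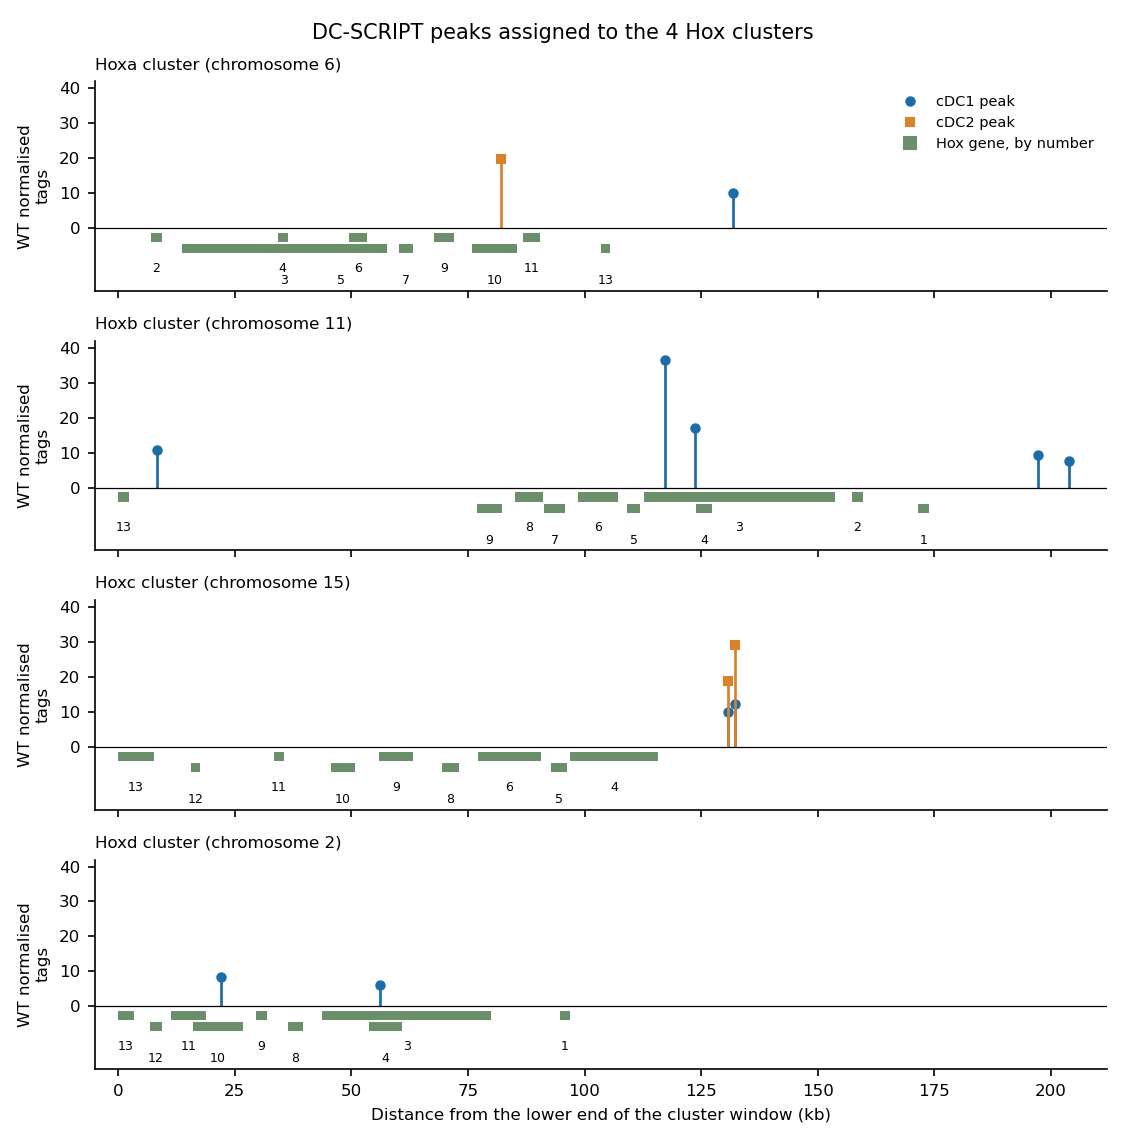
Each panel maps 1 Hox cluster, with the distance from the lower end of its window in kb on the horizontal axis, 38 Hox genes as green boxes with their paralogue numbers, and 13 assigned peaks as stems whose height is the wild-type signal in normalised tags (cDC1 circles, cDC2 squares). The highest stem is the 36.5-tag peak in Hoxb3, both subsets have a pair of stems above Hoxc4, and no stem stands inside the Hoxc window.

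Summed over its peaks, Hoxb held 5.36 normalised knockout tags against 81.1 wild-type tags in cDC1, over 955 bp of peaks, or 1.07 against 16.2 per peak. Hoxc held 1.24 against 22.5, and Hoxd 0.824 against 14.4, each over 382 bp. Per peak that was 0.618 against 11.2 at Hoxc and 0.412 against 7.19 at Hoxd. Hoxd thus had a lower mean wild-type signal in cDC1 than Hoxb or Hoxc, and both of its peaks had knockout tags at the lowest value listed. In cDC2 Hoxc held 8.79 knockout against 48.1 wild-type tags over 382 bp, and Hoxa 2.20 against 19.9 over 191 bp.

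The Hoxa cluster, on chromosome 6, has 11 genes. Beyond its upper end, 26.3 kb from Hoxa13, the gene of digits and the genital tract, stood a cDC1 peak at 52287063 to 52287253. The next gene, Evx1, starts 52.6 kb above Hoxa13, so this peak lies nearly midway and its assignment to Hoxa13 is close to a tie. A cDC1 peak at 52290241 to 52290431 was assigned to Evx1. The Hoxa13 peak had 0.824 normalised knockout tags against 10.1 wild-type tags. Its fold was 12.3 (95% interval 2.07 to 499.7, 1 knockout tag), with an authors' Poisson p over tags of 8.32e-10, and its signal was above 25.9% of the cDC1 list. In cDC2 the peak of this cluster stood inside Hoxa10, one of the genes active in blood progenitors, at 52237299 to 52237489. Knockout cDC2 had 2.20 tags there against 19.9 in wild-type cDC2, at a fold of 9.05 (1.52 to 67.1). It rested on 1.5 knockout tags and 9.5 wild-type tags, and its centre was 49764 bp from that of the nearest cDC1 peak. Its signal was above 27.2% of the cDC2 list. Hoxa2 to Hoxa9 and Hoxa11 had no peak in either list.

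Hoxb, on chromosome 11 from 96194316 to 96368254, has 10 genes. It held the Hox peak with the most tags, inside Hoxb3, a gene of neck and hindbrain patterning, at 96311442 to 96311632. Knockout cDC1 had 0.824 normalised tags there, against 36.5 in wild-type cDC1, for a fold of 44.6 (95% interval 7.84 to 1770, 1 knockout tag) and an authors' Poisson p of 1.42e-55. Its signal was above 87.4% and its fold above 96.7% of the cDC1 list. The second Hoxb3 peak, 6.46 kb away at 96317906 to 96318096, is the one between Mir10a and the Hoxb4 start. It had 0.824 knockout tags against 17.1 wild-type tags, at a fold of 20.7 (3.61 to 837.5, 1 knockout tag). Relative to the Hoxb4 start its centre was at -0.266 kb, yet it lies in Hoxb3, whose annotated transcripts run across this part of the cluster. These are the 2 highest Hoxb peaks. Those at the edges were weaker: 1.24 against 10.7 tags near Hoxb13, a gene of the hindgut and prostate, at a fold of 8.66 (1.68 to 55.6) and a distance of 6.14 kb. Beyond Hoxb1, which specifies a hindbrain segment, a pair of peaks 6.61 kb apart stood 23.2 kb and 29.9 kb from the gene. The lower of the pair had 1.65 against 9.30 tags and a fold of 5.64 (1.44 to 48.5), the smallest among the Hox peaks of cDC1. The upper had 0.824 against 7.47 tags and a fold of 9.06 (1.52 to 378.1, 1 knockout tag). In cDC2 the nearest peak to any Hoxb gene was 350.8 kb away.

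Hoxc, on chromosome 15 from 102921131 to 103036856, was the cluster where both subsets had peaks at the same places. Inside its window neither list had a peak. The peaks were a pair about 15.1 kb and 16.6 kb beyond Hoxc4, a homeodomain gene also expressed in lymphocytes, and all of them lay inside the long non-coding gene Gm30528. The lower cDC1 peak, at 103051838 to 103052028, had 0.824 normalised knockout tags against 10.1 wild-type tags, at a fold of 13.7 (95% interval 2.32 to 553.8, 1 knockout tag). At the upper one, 103053315 to 103053505, knockout cDC1 were at the lowest value listed against 12.4 wild-type tags, and the fold had an exact lower 95% limit of 3.91. In cDC2 the lower peak was centred 18 bp from that of cDC1 and overlapped it by 173 bp, with 3.66 knockout tags against 18.8 wild-type tags, at a fold of 5.15 (1.07 to 24.6). The upper was centred 12 bp from its cDC1 counterpart and overlapped it by 179 bp, with 5.13 against 29.3 tags and a fold of 5.72 (1.57 to 20.9). The upper peak of the pair was thus the higher one in both subsets. The 2 tables were scaled separately, so levels were not compared between subsets. No cDC1 peak lay in the 299.8 kb below the pair, which include the genes Hoxc4 to Hoxc13.

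Hoxd, on chromosome 2 from 74668225 to 74765142, patterns limbs and the trunk, and its 2 cDC1 peaks were inside genes and weak. The peak in Hoxd10, at 74690102 to 74690292, had knockout tags at the lowest value listed against 8.32 wild-type normalised tags, and the fold had an exact lower 95% limit of 2.61. Its centre was 1.69 kb before the RefSeq start of Hoxd10. The peak at 74724292 to 74724482 lay in Hoxd4 and also in Hoxd3, whose annotated transcripts span it, so it counted for both genes, 2.41 kb past the Hoxd4 start. There too knockout tags were at the lowest value, against 6.06 wild-type tags, and the lower limit of the fold was 1.87. This is the weakest Hox peak, with 4.62% of the cDC1 list below it. Above it followed 654.4 kb without a cDC1 peak. In cDC2 the nearest peak to any Hoxd gene was 613.8 kb away.

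**Figure D2:**
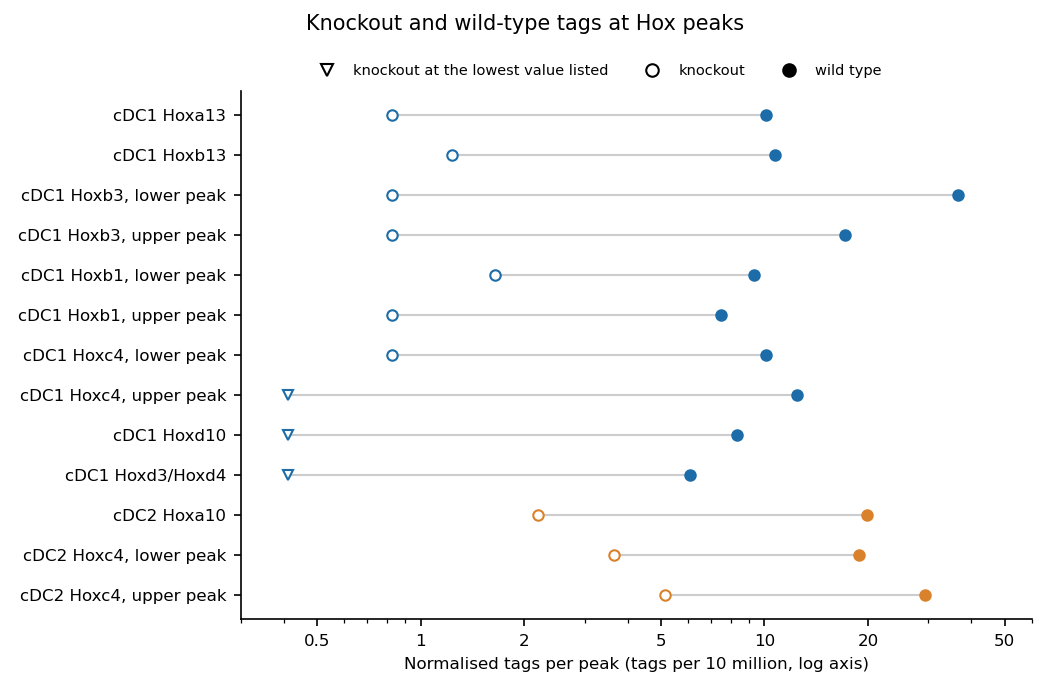
Normalised tags (log axis) in knockout (open symbols) and wild-type cells (filled) at 13 Hox peaks, 10 from cDC1 in blue and 3 from cDC2 in orange, with triangles at the lowest knockout value listed. Knockout values run up to 1.65 in cDC1 and from 2.20 to 5.13 in cDC2, and wild-type values from 6.06 to 36.5 and from 18.8 to 29.3. Each row has knockout below wild type, since the lists were made that way.

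Ordered along the body axis, the genes with a peak were those of low and high numbers. Of the 12 Hox genes of paralogue groups 1 to 4, 6 had a cDC1 peak, Hoxb1, Hoxb3, Hoxd3, Hoxc4 and Hoxd4 among them. Of the 15 genes of groups 5 to 9, 0 had a peak in either list. Of the 12 genes of groups 10 to 13, 3 had a cDC1 peak, Hoxa13, Hoxb13 and Hoxd10, and Hoxa10 had a cDC2 peak. Genes of low and high numbers stand at the ends of the clusters, and the assignment gives the outermost genes all peaks of the flanks. A peak inside a gene also counts only for the genes that contain it, however close another gene lies. The same peak thus counts for both Hoxd3 and Hoxd4. The annotated extent of Hoxb3 is 40.8 kb and spans Hoxb4. Its cDC1 peak with 36.5 normalised wild-type tags lay 5.32 kb from Hoxb5, a gene of groups 5 to 9. Both the order and the lack of peaks in groups 5 to 9 are thus partly set by the rule. Among the genes with a peak inside were Hoxb3, Hoxd3, Hoxd4 and Hoxd10 in cDC1 and Hoxa10 in cDC2. The 29 genes without a peak in either list lay between 0.171 kb and 123.0 kb from the nearest cDC1 peak, with a median of 34.4 kb. The nearest was Hoxb4 and the farthest Hoxc13. Hoxa9, the gene most tied to blood progenitors and leukaemia, was 59.7 kb from a cDC1 peak and 9.93 kb from a cDC2 peak.

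By wild-type signal most Hox peaks lay in the lower part of their lists. The 11 cDC1 peaks had a median of 10.1 normalised wild-type tags and ran from 6.06 to 36.5, beside a median of 15.5 over the whole list. Of them, 8 lay below that median. Their median knockout signal was 0.824 tags, beside 1.65 over the list. Knockout tags were at the lowest value, 0.5 tag, at 3 of the 11 (27.3%) and at 20.1% of all cDC1 peaks. Their median fold was 13.95 beside 10.2, where low knockout counts make single folds imprecise. With 1 tag added to both genotypes it was 7.35 beside 6.34, and with the lowest knockout value set to 3 tags 9.10 beside 7.53. The latter setting changed only peaks at the lowest value and left other Hox peaks with fewer than 3 knockout tags as they were. It is therefore not a floor of 3 tags on all peaks, and such a floor was not computed. The median fold over the surrounding 10 kb was 5.48 beside 6.65, and the median focus ratio, the share of tags placed as around a single point, was 0.713 beside 0.666. The centre lay inside a protein-coding gene at 5 of 11 Hox peaks (45.5%) and at 56.0% of the list. In cDC2 the 3 Hox peaks had a median of 19.9 wild-type tags beside 24.1 over the list, and a median fold of 5.72 beside 7.42.

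**Figure D3:**
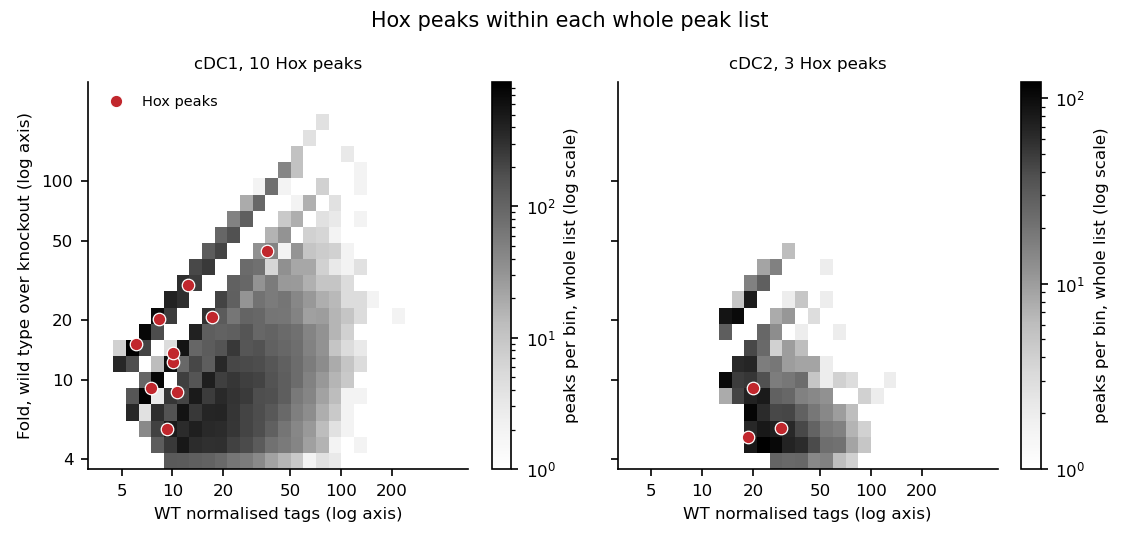
Fold of wild type over knockout against wild-type normalised tags (both log axes), with all peaks of a list as grey bins and 13 Hox peaks as red points, 10 for cDC1 on the left and 3 for cDC2 on the right. The cDC1 Hox points lie mostly left of the list's median of 15.5 tags, and those on the upper diagonal edge have knockout tags at the lowest value listed.

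Depth is among the limits on what the cDC2 list can show at these genes. Its threshold of 7 tags equals 14.7 normalised tags, and 3 of the 11 cDC1 Hox peaks were above it, both Hoxb3 peaks included, which would be worth 17.4 and 8.17 tags at the cDC2 depth. Over the whole cDC1 list, 53.5% of peaks would reach it. The cDC2 list holds peaks down to 12.6 normalised wild-type tags, so 14.7 is not a strict floor and these counts are approximate. The sets differed in more than depth: the listed IP efficiency was 6.47% in cDC1 and 0.79% in cDC2. Neither Hoxb3 peak is in the cDC2 list. The Hoxc4 pair, listed in both subsets, would be worth 4.82 and 5.92 tags at the cDC1 level. Whether the subsets differ at any Hox gene was not tested.

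The Hox genes were set against genes of the regions around the clusters and against further gene lists. Some flanking genes lie far off: a Wipf1 peak stood at 73486262 on chromosome 2, where the Hoxd window starts at 74668225. How closely genes are spaced was not allowed for. Over all protein-coding genes, 51.3% had a cDC1 peak and 9.54% a cDC2 peak. Of 32 flanking genes, 23 had a cDC1 peak (71.9%) and 8 a cDC2 peak (25%). The highest-scoring cDC1 peaks among them were those of Atp5g1, an ATP synthase subunit, with 2.47 knockout against 60.2 wild-type normalised tags, Hibadh, a valine-degrading enzyme, with 3.30 against 61.2, Skap2, an adaptor of integrin signalling in myeloid cells, with 3.71 against 42.6, and Cbx3, a heterochromatin protein, with 8.65 against 50.9. The Hibadh peak lay 32.5 kb from its gene, and all 4 peaks are above the 36.5 tags of the highest Hox peak. In cDC2 they were Wipf1, an actin regulator, with 8.79 against 39.8 tags, the fatty acid receptor Gpr84 with 4.40 against 33.5, the sorting nexin Snx10 with 5.86 against 26.2 and the transcription factor Nfe2l1 with 2.93 against 19.9. The immediate neighbours varied. Skap2 below Hoxa had 4 cDC1 peaks, Skap1 above Hoxb 2, and Evx1 above Hoxa, Calcoco1 below Hoxc and Smug1 above Hoxc 1 each. Ttll6 below Hoxb, Evx2 below Hoxd and Mtx2 above Hoxd had none. Evx1, a homeobox gene once part of the same array, also had a cDC2 peak inside the gene, with knockout tags at the lowest value against 14.7 wild-type tags.

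Other homeobox genes covered the whole range. Of the 6 ParaHox and Cdx genes, the relatives of the Hox clusters and their upstream regulators, 0 had a peak in either list. Of 45 other developmental homeobox and T-box genes, 16 had a cDC1 peak (35.6%) and 2 a cDC2 peak (4.44%). The highest-scoring were Dlx2, a forebrain factor, with 1.24 knockout against 38.1 wild-type tags in cDC1, then Dlx1 with 3.30 against 28.1, Lhx9 with 2.47 against 24.1 and Lhx4 with 2.88 against 22.4. This Dlx2 peak lay 34.1 kb from the gene. Both with a cDC2 peak, Dlx2 and Lhx5, had knockout tags at the lowest value, against 25.1 and 14.7 wild-type tags. These peaks lay 51.8 kb from Dlx2 and 3.07 kb from Lhx5. All 13 genes of the list named blood homeobox genes had a cDC1 peak, and 5 (38.5%) a cDC2 peak. Whether every gene of that list, Lbx1 among them, acts in blood cells was not checked. Over all protein-coding genes the shares were 51.3% and 9.54%. The lists were chosen with earlier results of these data known, so this is no independent contrast with the Hox genes. The 13 genes carried 94 cDC1 peaks, among them 21 of Hlx. The highest-scoring peak of Cux1 held 3.30 knockout against 58.9 wild-type tags, of Zeb1 4.12 against 45.1, of Hlx 2.88 against 52.3 and of Pou2f1 7.01 against 44.4. That of Hlx lay 162.8 kb from the gene. In cDC2 the leading genes were Tgif1 with 8.06 against 35.6 tags, Hlx with 8.06 against 33.5, Zeb2, a regulator of dendritic cell fate, with 4.40 against 20.9 and Zfhx3 with 3.66 against 20.9. There the Hlx peak lay 248.9 kb and the Tgif1 peak 11.4 kb from the gene.

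**Figure D4:**
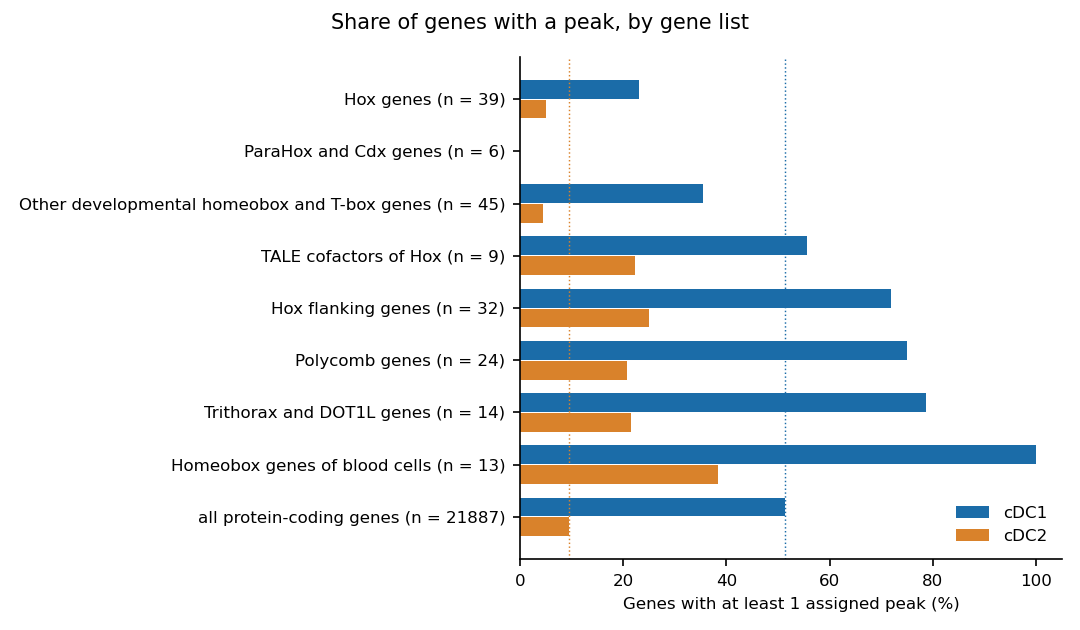
Bars give the share of genes of each list with at least 1 assigned peak, in percent, for cDC1 (blue) and cDC2 (orange), and dotted lines mark the share among all 21887 protein-coding genes. Hox genes stand at 23.1% and 5.13%, between the ParaHox and Cdx genes at 0 and the list named blood homeobox genes at 100% and 38.5%.

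Proteins that work with Hox factors or set the state of their clusters were encoded by genes of which a larger share had a peak than among Hox genes, a difference that was not tested. Over all protein-coding genes the share was 51.3% in cDC1 and 9.54% in cDC2. Spacing was not allowed for, with 21.6 kb of chromosome per Hox gene against 123.5 kb for all protein-coding genes. The TALE list held 9 homeobox genes of the Meis, Pbx and Pknox families, which encode DNA-binding partners of Hox proteins. Of these, 5 had a cDC1 peak (55.6%, near the share of all genes) and 2 a cDC2 peak. Meis1, the partner of Hoxa9 in progenitors, carried 7 cDC1 peaks, the highest-scoring with 0.824 knockout against 34.7 wild-type tags, and in cDC2 had 3.66 against 22.0. Pknox1 and Pbx4 followed in cDC1 with 7.83 against 45.8 tags and 2.06 against 27.1. Among 14 trithorax and DOT1L genes, which maintain active Hox chromatin, 11 had a cDC1 peak (78.6%) and 3 a cDC2 peak. Kdm6b, a demethylase of the Polycomb mark, held 15.7 against 80.6 tags in cDC1, Aff1 3.30 against 62.6, Dot1l 6.59 against 42.6 and Wdr5 1.65 against 42.7. In cDC2 the genes were Aff1 with 13.9 against 56.5 tags, Kdm6a with 10.3 against 46.1, and Mllt3 with the lowest knockout value against 17.8. The Mllt3 peak lay 86.9 kb from the gene. Of 24 Polycomb genes, which keep Hox genes off, 18 had a cDC1 peak (75%) and 5 a cDC2 peak. Jarid2, a cofactor of the methylating complex, alone carried 41 of the list's 90 cDC1 peaks. Its highest-scoring one, with 3.71 against 80.4 tags, lay 192.4 kb from the gene. Phc2 held 7.42 against 80.5 tags, Phf19 14.0 against 71.9 and the methyltransferase gene Ezh2 4.95 against 63.4. The Ezh2 peak lay 26.0 kb from the gene.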

How the data were processed

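CUT&Tag libraries were assigned to a subset and a genotype by title. The authors deposited 2 tables of HOMER findPeaks output, 1 per subset, called on 1 wild-type tag set with 1 knockout tag set as control, per the file headers. Whether every library entered its set, which aligner was used and how duplicates were treated is not stated in the labels. Builds GRCm38 and mm10, names of 1 assembly, come from the submitters' processing notes. The authors' limits, per the file headers, were a false discovery rate of 0.001, and a fold of at least 4 with a Poisson p-value of at most 0.0001 over knockout and over the local 10 kb.

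Per the file headers, the deposited signal is wild-type tags scaled to 10000000, the score is HOMER's own, the focus ratio is a fraction, and each ratio is a fold over knockout, over surroundings or over unique positions. The tags from which a fold was formed stand at the depth of the smaller set, knockout for cDC1 and wild type for cDC2, and were scaled back here. The depth of the knockout sets came from that scaling. A knockout value of 0.5 tag is the lowest listed and can stand for no tag, and such folds are therefore reported by a lower limit alone, computed with no knockout tag. 3 knockout tags equal 2.47 normalised tags in cDC1 and 4.40 in cDC2. Intervals are exact (Clopper-Pearson) for tag ratios, with wild-type tags rounded and fractional knockout tags rounded up, or exact Poisson for peak counts. The tag-ratio intervals were tested on simulated whole tag counts, without the selection on fold. Neither the Poisson intervals nor the rounding of fractional tags was tested in this way.

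Genes came from a RefSeq table of GRCm38.p6, limited to the numbered chromosomes, X and Y. A peak inside several genes counted for each gene and once for its cluster. That table gives gene extents over all listed transcripts and no exons, so exons, introns and UTRs were not assigned. Values were computed with Python 3.11.15, numpy 2.4.6, pandas 2.3.3 and scipy 1.17.1. The members and gene lists were chosen with earlier results of these data known. Named genes were all Hox genes with a peak, the gene on each side of a cluster, and up to 4 genes per list and subset with the highest-scoring peaks. Dlx, Lhx and other list genes that share territory can share peaks. Some members are counted in totals but not reported singly here. The per-library test planned for counts was not made, since the tables hold pooled tags. No genome sequence was used, so bases under peaks are shown only where a RefSeq promoter covers them.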

Additional observations from a re-analysis of the deposited data

How the results depend on the processing

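The Hox counts moved both with the score of the peaks kept and with how a peak is tied to a gene. With 11 peaks and 9 genes in cDC1, and 3 peaks and 2 genes in cDC2, letting any overlap of a peak count changed nothing. A fold of at least 8 left 10 peaks and 9 genes in cDC1, but 1 peak and 1 gene in cDC2, with 0 at Hoxc. The higher-scoring 50% of peaks left 3 peaks and 2 genes in cDC1 (1 at Hoxa, Hoxb 2, Hoxc 0, Hoxd 0), and 1 peak and 1 gene in cDC2 (Hoxa 0, Hoxc 1). Within 10 kb of the gene there were 6 peaks and 6 genes in cDC1 (1 at Hoxa, Hoxb 3, Hoxc 0, Hoxd 2), and 1 peak and 1 gene in cDC2 (Hoxc 0). With non-coding genes allowed as nearest gene, 5 peaks and 5 genes remained in cDC1 (1 at Hoxa, Hoxb 2, Hoxc 0), and 1 peak and 1 gene in cDC2 (Hoxc 0). Windows between the outermost genes held 6 cDC1 peaks (1 at Hoxa, Hoxb 3, Hoxc 0) and 1 cDC2 peak (Hoxc 0). Windows widened by 100 kb held 16 and 4, with 4 at Hoxa and 5 at Hoxd in cDC1 and 2 at Hoxa in cDC2.

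With 1 tag added to knockout and wild type, the median Hox fold was 7.35 in cDC1 and 4.35 in cDC2, against 13.95 and 5.72 without. With the lowest knockout value set to 3 tags, and other values below 3 tags left as they were, it was 9.10 in cDC1. Each single fold stayed within its interval under both. The share of the list below the median Hox peak was 25.9% in cDC1 and 27.2% in cDC2. It was 32.6% and 26.0% by score, and 23.6% and 26.9% against peaks within 10 kb of a gene. No paired analysis was possible because the tables hold 1 pooled knockout and 1 pooled wild-type tag set per subset. For the same reason leaving out replicates, other size factors and a filter on low counts were not run. Counting error limits all folds here, since no Hox peak had more than 3.5 knockout tags.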
